A study of Homo sapiens
Mus musculus with 8 samples.

Results

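The small nucleolar RNA host genes, symbols beginning SNHG, were followed across 4 lymphocyte cell lines, 3 Chromium kits and repeated cell mixtures. Members were taken by name only: every feature whose symbol, ignoring case, was SNHG followed by a number, or GAS5. The rule used no measured value and found 14 of the 60736 features of the combined count table, 7 of the 27998 mouse features and 7 of the 32738 human features. The mouse members were Snhg6 (ENSMUSG00000098234), Snhg7os (ENSMUSG00000086775), Snhg9 (ENSMUSG00000090101), Snhg11 (ENSMUSG00000044349), Snhg12 (ENSMUSG00000086290), Snhg18 (ENSMUSG00000096956) and Snhg20 (ENSMUSG00000086859). The human members were SNHG7 (ENSG00000233016), SNHG8 (ENSG00000269893), SNHG9 (ENSG00000255198), SNHG10 (ENSG00000247092), SNHG12 (ENSG00000197989), SNHG15 (ENSG00000232956) and SNHG18 (ENSG00000250786). GAS5 is not analysed here. Snhg7os is annotated as the transcript on the strand opposite to Snhg7 and is a member by name only.

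Equal numbers of viable cells of EL4, IVA12, Jurkat and TALL-104 (TALL104 in the labels) were pooled and run together on the 10x Genomics Chromium, a droplet system that counts unique molecular identifiers (UMIs) at 1 end of each transcript. EL4 is a mouse T lymphoma line, IVA12 a mouse B lineage hybridoma line, Jurkat a human leukaemic T cell line, and TALL-104 a human cytotoxic T cell line of small cell size that was grown with the cytokine IL-2. All 4 were untreated, and each is a single cultured line that stands for itself and not for primary T or B cells. Values were read from 7 libraries: 1 made with the 3′ v2 kit (3p v2 replicate 2), 4 with the 3′ v3 kit (3p v3 replicates 1 to 4) and 2 with the 5′ v1 kit (5p v1 replicates 1 and 2), the first 2 kits counting the 3′ end of a transcript and the last the 5′ end. By the study's list of samples, 3p v3 replicates 1 and 3 shared 1 cell mixture, 3p v3 replicates 2 and 4 another, and each of the other kits had a mixture of its own, so kit and mixture cannot be told apart, and p-values between libraries of 1 mixture measure technical spread.

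SNHG genes carry small nucleolar RNAs (snoRNAs) in their introns. Splicing frees the intron, from which the snoRNA is trimmed and packed with its core proteins to guide the methylation (box C/D snoRNAs) or pseudouridylation (box H/ACA snoRNAs) of ribosomal RNA, while the spliced host RNA, which codes for no long protein, is often short-lived. Many host transcripts start with the pyrimidine tract that is typical of ribosomal protein genes, and many are targets of nonsense-mediated decay, a pathway that removes RNAs whose translation stops early. The libraries counted the polyadenylated, spliced host and not the snoRNA. In a RefSeq table of human build GRCh38, which was matched by name and is not the hg19 annotation used for counting, all 7 human members were long non-coding RNA genes with 11 small RNA genes inside their spans, and none of those 11 symbols was in the count table. SNHG12 spans SNORA16A, SNORA44, SNORA61 and SNORD99, SNHG7 spans SNORA17A and SNORA17B, SNHG8 spans SNORA24, SNHG9 spans SNORA78, SNHG15 spans SNORA9, SNHG18 spans SNORD123, and SNHG10 spans SCARNA13, a guide RNA of the Cajal body. In that table SNHG12 also overlaps the protein-coding gene TRNAU1AP and SNHG7 overlaps DIPK1B, and whether they overlap in the annotation used for counting was not tested.

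The analysis rested on cells with at least 1000 UMIs, more than 80% of them from 1 species and less than 10% from mitochondrial genes. These limits left 27076 cells. Barcodes that met the UMI and species limits were clustered before the mitochondrial limit was applied. Clustering used variable genes from every other row of the gene list, without members or mitochondrial genes. Clusters were then named from marker genes, which assigned 23860 of the 27076 cells to a line, and 3216 (11.9%) stayed unnamed. The unnamed share of mouse cells was 16.8%, 21.0%, 31.7% and 12.5% in 3p v3 replicates 1 to 4. It was 4.48% and 0% in 5p v1 replicates 1 and 2 and 2.67% in 3p v2. Of the human cells at most 4.81% of a library stayed unnamed. The summed level of each line's marker list was 22.2 to 110 times higher in EL4 than in IVA12 for the EL4 list, 37.8 to 197 times higher in IVA12 for the IVA12 list, 37.9 to 125 times higher in TALL-104 for the TALL-104 list, and 1.52 to 6.36 times higher in Jurkat for the Jurkat list. The clusters were named from these same lists, so the folds describe the naming and are no test of it. UMIs were summed over the cells of a line in each library, and levels are given as CPM, the UMIs of a gene per 1e6 UMIs of the same species in that sum. The sums held between 180215 UMIs (TALL-104 in 3p v2) and 77020063 UMIs (EL4 in 3p v3 replicate 3). TALL-104 was the thinnest, with 42 and 76 cells in the 5p v1 libraries and 187 to 1242 in the 3p v3 libraries. UMIs of the other species made up 0.79% to 14.2% of TALL-104 sums and 0.0311% to 3.74% of the sums of the other lines.

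Among the mouse members Snhg6 set the lines apart most clearly. Its level in EL4 was 466 CPM in 3p v2, 155, 311, 173 and 258 CPM in 3p v3 replicates 1 to 4, and 178 CPM in both 5p v1 libraries. IVA12 held 104 CPM in 3p v2, 52.8, 109, 45.0 and 93.2 CPM in 3p v3, and 46.4 and 51.3 CPM in 5p v1. The lines did not overlap within a kit, and EL4 was higher in 7 of 7 libraries. The difference was 1.70 on the log2 scale in 3p v3 (SE 0.11, adjusted p = 6.23e-06 in edgeR's quasi-likelihood test with the library as a block) and 2.09 in 5p v1 (SE 0.068).

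Snhg9 also stood higher in EL4 where it was counted. EL4 had 90.2 CPM in 3p v2 and 9.95, 21.0, 27.3 and 13.5 CPM in 3p v3, against 46.0 CPM and then 5.50, 12.2, 12.9 and 6.78 CPM in IVA12. The 3p v3 groups overlapped because Snhg9 varied between libraries by a factor larger than that between lines, but within each of the 4 libraries EL4 was the higher line. The blocked difference was 1.03 (SE 0.099, adjusted p = 4.49e-05). Barcodes with fewer than 100 UMIs, which hold free RNA and not cells, had 19.4 to 41.4 CPM of Snhg9 in 3p v3, more than EL4 or IVA12 in each of these libraries. With the estimated free RNA taken off each sum the difference was 1.11, with adjusted p = 1.69e-04.

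Snhg20 ran the other way and was lower in EL4. EL4 had 37.2 CPM in 3p v2, 40.4, 46.2, 36.4 and 43.0 CPM in 3p v3, and 78.1 and 92.3 CPM in 5p v1. IVA12 had 53.0 CPM in 3p v2, 57.2, 61.0, 52.4 and 61.3 CPM in 3p v3, and 101 and 115 CPM in 5p v1. No EL4 value reached an IVA12 value of the same kit. The difference was -0.40 in 3p v3 (SE 0.059, adjusted p = 4.49e-04) and -0.14 in 5p v1 (SE 0.064, adjusted p = 0.033). The log2 ratio of the mean CPM, which uses no TMM scaling, was -0.48 in 3p v3 and -0.35 in 5p v1. The 5p v1 call was lost without a filter on low counts (adjusted p = 0.058), without the library block (0.22), with cells thinned to 1000 UMIs (0.72) and with clusters of mixed markers kept (0.17).

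Snhg12 differed between the lines in 5p v1, while its smaller difference in 3p v3 did not pass with all 4 libraries. Its 3p levels were close together, with 50.1 CPM in 3p v2 and 48.9, 60.2, 41.4 and 58.1 CPM in 3p v3 for EL4, and 41.8 CPM and then 45.6, 63.0, 35.9 and 53.3 CPM for IVA12. In 5p v1 EL4 stood at 105.6 and 99.2 CPM while IVA12 stayed at 43.5 and 50.2 CPM. The lines overlapped in 3p v3 and lay apart in 5p v1. The log2 difference was 0.18 in 3p v3 (SE 0.084, adjusted p = 0.090) and 1.36 in 5p v1 (SE 0.068). Without 3p v3 replicate 2 the 3p v3 difference was 0.20 and passed (adjusted p = 0.047), and without any other replicate it did not (adjusted p from 0.15 to 0.35). The interaction term, which tests whether the difference between lines is the same in 3p v3 and 5p v1, was -1.18 (SE 0.15, adjusted p = 4.39e-04), and Snhg12 was the only 1 of the 5 mouse members in that fit to pass. Without 3p v3 replicate 1 the number was 2, and without replicate 3 it was 3. Snhg20 had an interaction of -0.27 (adjusted p = 0.051), and Snhg6 one of -0.39 (adjusted p = 0.12). Over all 13125 genes 16.4% passed with EL4 relatively higher in 3p v3 and 13.9% with EL4 relatively higher in 5p v1. The former were 54.1% of the genes called with TMM and 68.3% with total UMIs.

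**Figure D1:**
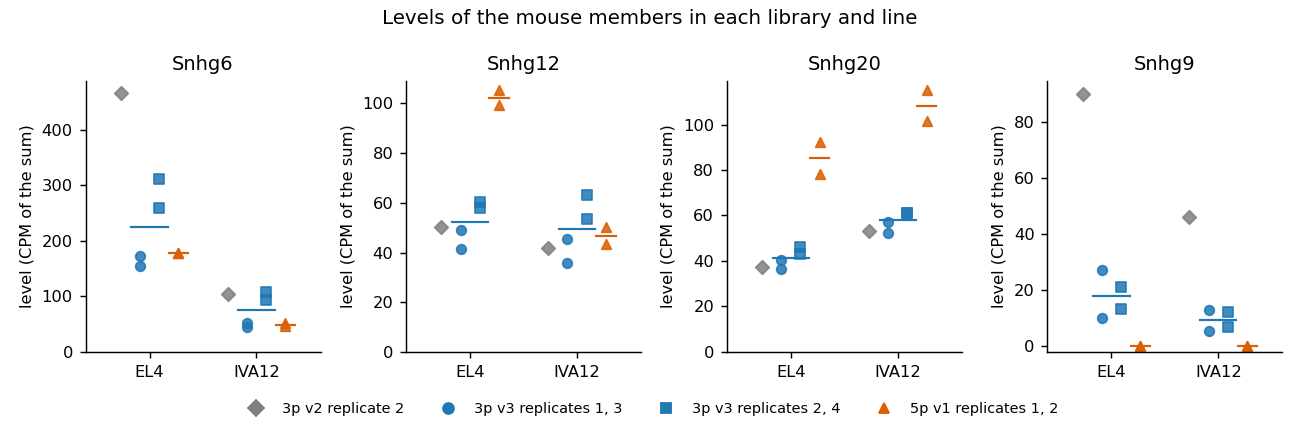
Levels in CPM (vertical axis, linear, a separate scale in each panel) of the 4 mouse members that were counted in EL4 and IVA12, 1 point per library, with horizontal lines at the means of 3p v3 and 5p v1. Snhg6 was higher in EL4 in every library, Snhg12 was raised in EL4 in 5p v1, Snhg20 was higher in IVA12, and Snhg9 lay at or near 0 in 5p v1.

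In 3p v3, 3 of the 4 mouse members tested passed, 2 higher in EL4 and 1 higher in IVA12. Without replicate 2 it was 5 of 5, with Snhg12 added and Snhg11, which met the low-count filter through IVA12 alone. With all 4 libraries 41.1% of all 12300 genes tested were higher in EL4 and 38.1% higher in IVA12. In 5p v1 all 3 members tested passed, again 2 higher in EL4 and 1 in IVA12, beside 42.1% and 43.5% of 12243 genes. The median difference was 0.60 over the members tested and 0.039 over all genes in 3p v3, and 1.36 and -0.020 in 5p v1. With 4 sums and a block the 5p v1 fit kept 1 residual degree of freedom, so the spread was borrowed from all genes.

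The other mouse members were at or near 0. Snhg18 had 0 UMIs in every sum, where a count of 0 still allows 0.039 CPM in the largest EL4 sum and 1.05 CPM in the smallest IVA12 sum. Snhg7os had at most 5 UMIs in a sum. Snhg11 had 0 UMIs in 6 of the 7 EL4 sums and 6 UMIs in the other, while IVA12 had up to 30 UMIs and at most 0.54 CPM. None of the 3 passed the filter on low counts in the line comparisons with all libraries of a kit. Snhg11 entered the fit of the line-by-kit interaction (2.36, SE 2.32, adjusted p = 0.47). Without 3p v3 replicate 2 it also entered that of the lines in 3p v3, at -3.42 (EL4 minus IVA12). There it met the filter through its IVA12 sums alone, so its direction was fixed in advance and its call carries no weight.

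In the human lines in 3p v3, SNHG7, SNHG15, SNHG8 and SNHG10 were higher in Jurkat, and SNHG12 and SNHG9 were higher in TALL-104. SNHG7 in Jurkat was at 74.8 CPM in 3p v2, 105, 92.4, 101 and 95.1 CPM in 3p v3, and 185 and 217 CPM in 5p v1. TALL-104 had 11.1 CPM in 3p v2, 47.999, 28.3, 39.8 and 23.5 CPM in 3p v3, and 31.4 and 78.7 CPM in 5p v1. The 3p v2 value rested on 2 UMIs and the 5p v1 values on 8 and 17, of which up to 6 were in 1 cell. The lines did not overlap within a kit. The difference was 1.32 in 3p v3 (SE 0.17, adjusted p = 1.86e-05) and 1.88 in 5p v1 (SE 0.33, adjusted p = 0.0096).

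SNHG15 had 143 CPM in Jurkat in 3p v2, 149, 93.7, 144 and 88.1 CPM in 3p v3, and 210 and 229 CPM in 5p v1. Its TALL-104 levels were 49.9 CPM, then 75.7, 43.3, 60.1 and 30.3 CPM, then 74.5 and 190 CPM. Jurkat lay above TALL-104 in 7 of 7 libraries, with the smallest gap in 5p v1 replicate 2, where Jurkat was 1.205 times higher. The 190 CPM there rested on 41 UMIs in a sum of 42 cells with uneven depth, whose median was 2951 UMIs and 90th percentile 12141. Naming cells 1 by 1 gave 30 TALL-104 cells with 91834 UMIs in that library, against 215875 UMIs in the 42. The 3p v3 difference was 1.05 (SE 0.15, adjusted p = 2.88e-05), and the 5p v1 difference was 0.77 (SE 0.31, adjusted p = 0.16). The latter was 1.89 with cells named 1 by 1 and 2.28 with cells thinned to 1000 UMIs, and passed in both (adjusted p = 9.07e-10 and 1.68e-04), with SNHG15 in 2 of the 42 thinned cells. It also passed with no filter on low counts, at 0.83 (adjusted p = 0.026), and did not pass under the other settings tried.

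The host of SNORA24, SNHG8, showed a smaller difference. Jurkat had 185 CPM in 3p v2, 125, 121, 128 and 134 CPM in 3p v3, and 173 and 183 CPM in 5p v1, against 166 CPM, then 72.4, 58.4, 110 and 55.5 CPM, then 118 and 125 CPM in TALL-104. The 3p v3 and 5p v1 ranges did not overlap. The difference was 0.62 in 3p v3 (SE 0.18, adjusted p = 0.0091) and 0.51 in 5p v1 (SE 0.24, adjusted p = 0.21). SNHG10 rested on few molecules in TALL-104, with 4 to 35 UMIs in each 3p v3 sum. It had 27.3, 25.0, 26.8 and 26.3 CPM in Jurkat and 8.95, 11.3, 13.9 and 3.36 CPM in TALL-104 in 3p v3, a difference of 1.28 (SE 0.27, adjusted p = 0.0010). In 3p v2 the lines were at 32.8 and 27.7 CPM, the latter on 5 UMIs, and in 5p v1 at 50.3 and 60.4 CPM in Jurkat and 15.7 and 27.8 CPM in TALL-104, on 4 and 6 UMIs, a difference of 1.33 that did not pass (SE 0.42, adjusted p = 0.081).

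SNHG12 had the larger of the differences towards TALL-104 in 3p v3. Jurkat had 12.9 CPM in 3p v2, 14.8, 8.12, 15.6 and 11.3 CPM in 3p v3, and 28.2 and 31.6 CPM in 5p v1, while TALL-104 had 27.7 CPM, then 43.1, 26.4, 49.4 and 34.5 CPM, then 70.6 and 46.3 CPM. TALL-104 was higher in 7 of 7 libraries and the lines did not overlap within a kit. The difference, Jurkat minus TALL-104, was -1.79 in 3p v3 (SE 0.16, adjusted p = 5.73e-07) and -1.03 in 5p v1 (SE 0.37, adjusted p = 0.12). SNHG9 in 3p v3 was at 13.1, 11.9, 22.6 and 9.96 CPM in Jurkat and at 29.3, 20.7, 43.0 and 16.0 CPM in TALL-104. The ranges overlapped, but TALL-104 was higher within each of these 4 libraries, and the blocked difference was -1.11 (SE 0.19, adjusted p = 1.51e-04). In 3p v2 the order was the opposite, with 35.8 CPM in Jurkat and 27.7 CPM (5 UMIs) in TALL-104. In 5p v1 the lines overlapped, at 4.06 and 4.19 CPM in Jurkat and 3.92 and 9.26 CPM in TALL-104. The 5p v1 difference of -0.67 did not pass (SE 1.02, adjusted p = 0.71). Barcodes with fewer than 100 UMIs held 41.4 to 77.4 CPM of SNHG9 in 3p v3, above Jurkat in all of those libraries, and 26.4 to 44.0 CPM of SNHG12. With estimated free RNA taken off, the differences were -1.82 for SNHG12 and -1.09 for SNHG9, with adjusted p = 2.48e-06 and 4.00e-04.

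**Figure D2:**
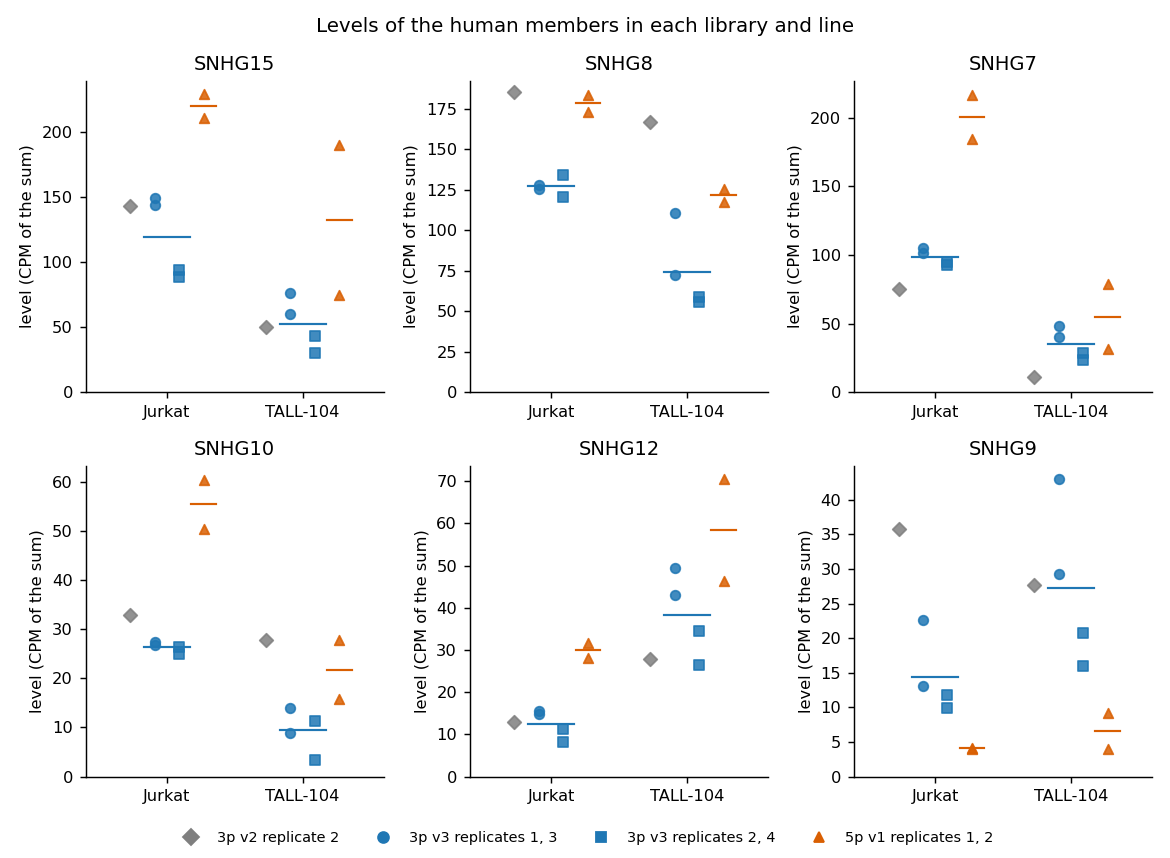
Levels in CPM (vertical axis, linear, a separate scale in each panel) of 6 human members in Jurkat and TALL-104, 1 point per library, with horizontal lines at the means of 3p v3 and 5p v1. SNHG15, SNHG8, SNHG7 and SNHG10 lay higher in Jurkat and SNHG12 lay higher in TALL-104, while SNHG9 was lowest in 5p v1 in both lines.

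All 6 human members tested passed in 3p v3, 4 higher in Jurkat and 2 higher in TALL-104, where 33.5% of all 10334 genes were higher in Jurkat and 32% higher in TALL-104. In 5p v1, 1 of the 6 passed, SNHG7, beside 5.28% of 11588 genes higher in Jurkat and 7.38% higher in TALL-104. The summed Jurkat marker list in TALL-104 reached 15.7% to 20.7% of its Jurkat level in 3p v3, and 33.3% and 65.7% in 5p v1 replicates 1 and 2, with 4 and 3 of its 17 genes at 0. Its part in the 5p v1 result was not tested. When cells were named 1 by 1 from their own marker UMIs, 5 members passed in 5p v1. The share of all genes called under that naming is not given here, so the rise is not read as particular to the members. The interaction of line and kit passed for 0 of the 6 members in edgeR, 0 at an unadjusted p under 0.05 and 0 in DESeq2, beside 1.44% and 0.285% of 11589 genes in the directions of 3p v3 and 5p v1. The 7th human member, SNHG18, had at most 2 UMIs in a Jurkat sum and 0 in every TALL-104 sum.

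**Figure D3:**
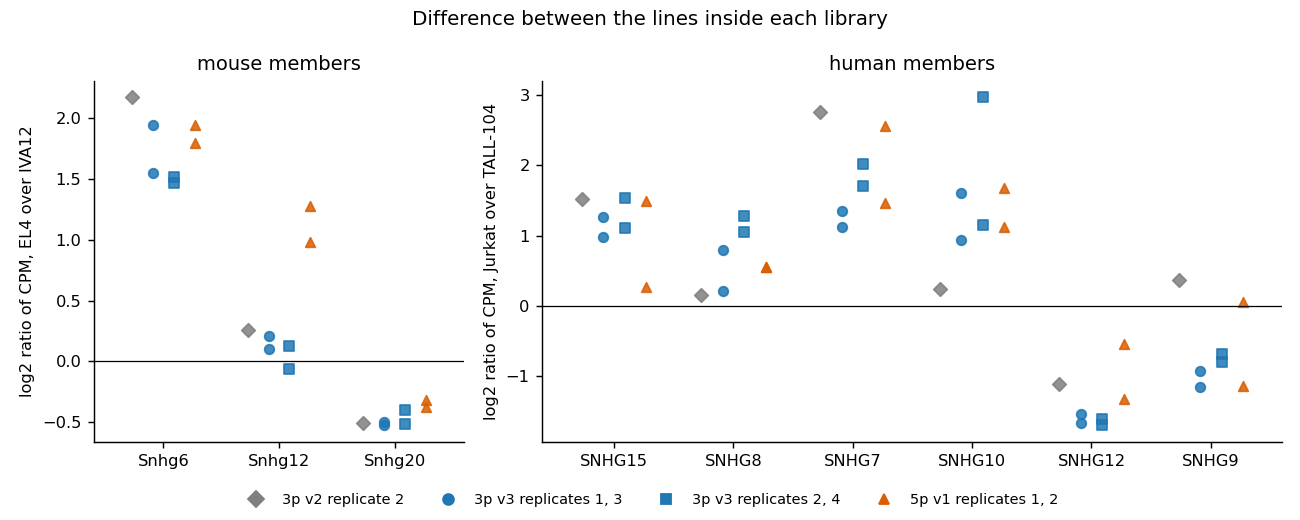
The log2 ratio of CPM between the lines (vertical axis) inside each library, EL4 over IVA12 for 3 mouse members and Jurkat over TALL-104 for 6 human members, with 0 marking equal levels. Snhg9 is left out because 5p v1 held 1 UMI. The 5p v1 points of Snhg12 lie above all its 3p points, those of Snhg20 lie above its 3p points by less, and SNHG12 lies below 0 in all 7 libraries.

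Between kits, the mouse and human Snhg9 were the members counted more in 3p v3, and most others were counted more in 5p v1 or did not differ detectably. Mouse Snhg9 nearly vanished from 5p v1: EL4 had 3304 UMIs over the 4 3p v3 sums (19.6 CPM) and 1 UMI in 48663330 over both 5p v1 sums, and IVA12 had 1156 UMIs (10.0 CPM) and 0 UMIs in 34695674. The EL4 ratio was 954, with an exact 95% interval of 171 to 37710 that covers counting error only. Against the 3 counts that a count of 0 allows over the 5p v1 sums, IVA12 was at least 116-fold higher in 3p v3. The exact 95% interval, the kind given for EL4, began lower for IVA12, at 94.3. SNHG9 in Jurkat was also lower in 5p v1, at 4.06 and 4.19 CPM, a difference of 1.86 (SE 0.45, adjusted p = 0.032). TALL-104 had 3.92 and 9.26 CPM there, on 1 and 2 UMIs, a difference of 2.26 that did not pass (SE 0.82, adjusted p = 0.10).

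Snhg20 was counted more in 5p v1 in both mouse lines, by 2.15 times in EL4 (log2 -1.10, SE 0.13, adjusted p = 0.0015) and 1.84 times in IVA12 (log2 -0.88, SE 0.14, adjusted p = 0.016), with no overlap between kits in either line. Snhg12 was counted 2.08 times more in 5p v1 in EL4 (log2 -1.05, SE 0.13, adjusted p = 0.0015), and its IVA12 values overlapped between the kits (log2 0.086, SE 0.19). Snhg6 overlapped between kits in both lines. In Jurkat SNHG7, SNHG10 and SNHG12 were higher in 5p v1, by 2.10 times (adjusted p = 0.030), 2.14 times (adjusted p = 0.016) and 2.27 times (adjusted p = 0.047). SNHG8 and SNHG15 were 1.46 and 1.85 times higher in 5p v1 in Jurkat without passing (adjusted p = 0.14 and 0.15), although their kits did not overlap.

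The members past the threshold were 3 of 4 in EL4 (1 higher in 3p v3 and 2 higher in 5p v1), 2 of 4 in IVA12 (1 each way), 4 of 6 in Jurkat (1 higher in 3p v3 and 3 higher in 5p v1) and 0 of 6 in TALL-104. In both mouse lines the member higher in 3p v3 was Snhg9, which met the low-count filter through 3p v3 alone. Its direction was thus fixed in advance, and its calls carry no weight. Genes higher in 3p v3 and in 5p v1 made up 19.1% and 17.3% of 11927 genes in EL4, 4.47% and 4.9% of 12044 in IVA12, 8% and 8.17% of 14065 in Jurkat, and 3.59% and 3.11% of 8743 in TALL-104. In TALL-104 the genes higher in 3p v3 were 53.6% of those called with TMM and 38.3% with total UMIs. In TALL-104, where 1 member passed without 3p v3 replicate 1, 3 or 4, 2 members had an unadjusted p under 0.05 in edgeR, SNHG9 and SNHG15, and 0 passed in DESeq2. The IVA12 and Jurkat calls were lost when either 5p v1 library was left out, which leaves 1 library of that kit. Leaving out 3p v3 replicate 2 or 3 took the Jurkat count to 2, and thinning each cell to 1000 UMIs took it to 0. The shares of all genes called with a library left out or cells thinned are not given here. Mixtures differed between the kits as well.

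**Figure D4:**
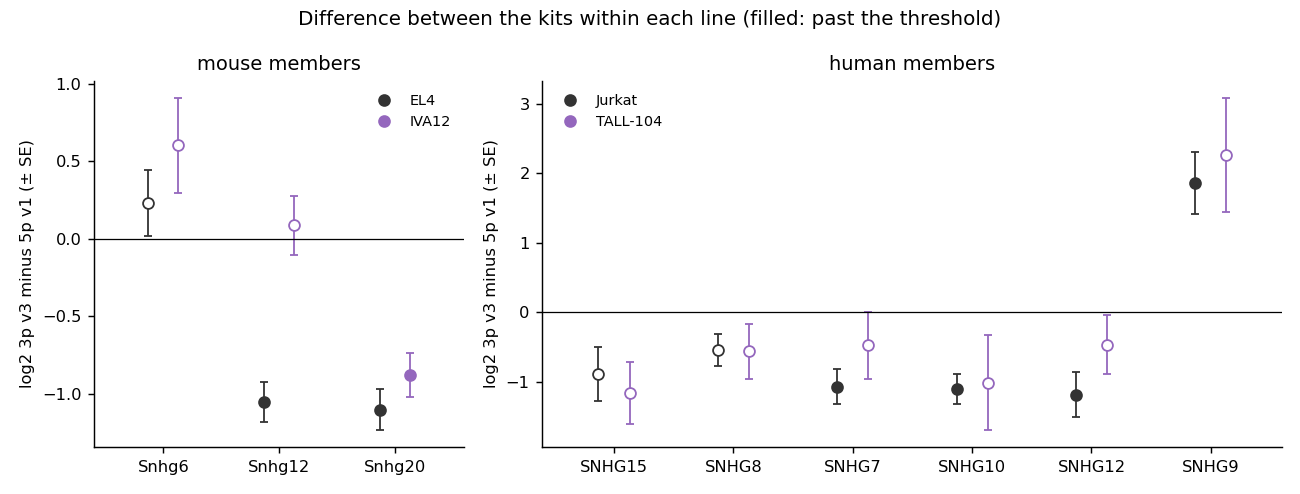
The log2 difference 3p v3 minus 5p v1 (vertical axis, with standard error) for each member within each line, filled where the adjusted p was under 0.05. Snhg9 is left out because 5p v1 held 1 UMI. Snhg12 differed between the kits by -1.05 in EL4 and 0.086 in IVA12, and SNHG9 lay above 0 in both human lines.

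The 2 cell mixtures run with 3p v3 also differed in their host genes, with Snhg6 lower in replicates 1 and 3 in both mouse lines and the human members higher there under TMM. Snhg6 was at 155 and 173 against 311 and 258 CPM in EL4 and 52.8 and 45.0 against 109 and 93.2 CPM in IVA12. The difference was -0.44 in EL4 (SE 0.11, adjusted p = 0.013) and -0.81 in IVA12 (SE 0.093, adjusted p = 1.40e-04), with no overlap in either. SNHG15 was higher in replicates 1 and 3, by 1.11 in Jurkat (SE 0.11, adjusted p = 8.27e-07) and 1.29 in TALL-104 (SE 0.23, adjusted p = 1.46e-04), again with no overlap. SNHG9 and SNHG12 were higher there in both human lines, by 1.19 and 0.97 in Jurkat and by 1.45 and 0.92 in TALL-104. SNHG7, SNHG10 and SNHG8 were higher by 0.55, 0.48 and 0.39 in Jurkat and by 1.13, 1.37 and 1.09 in TALL-104, and all passed.

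These differences depended on how the sums were scaled. The CPM of SNHG8 in Jurkat overlapped between the mixtures, and that of SNHG10 was 27.0 CPM on average in replicates 1 and 3 and 25.6 CPM in replicates 2 and 4. TMM, the scaling used in the fits, sets the bulk of genes equal, and the median of all genes in Jurkat was -0.44 with total UMIs and -0.028 with TMM. Scaled by total UMIs, SNHG15, SNHG12 and SNHG9 still passed in Jurkat, at 0.70, 0.56 and 0.78, while SNHG7 and SNHG10 were at 0.13 and 0.06 and SNHG8 changed sign to -0.02. In TALL-104, 4 of the 6 still passed, with SNHG15 at 0.93 and SNHG9 at 1.09, where the median of all genes was -0.38. Over all genes with total UMIs, 2461 of 13677 were higher in replicates 1 and 3 and 6104 lower in Jurkat. In TALL-104 688 of 8861 were higher and 3039 lower. The Snhg6 difference was larger, at -0.79 in EL4 and -1.05 in IVA12, Snhg12 also passed in both mouse lines, at -0.39 and -0.52, and Snhg20 changed sign in both without passing. With total UMIs in place of TMM, the share of called genes that were higher in replicates 1 and 3 fell from 52.1% to 24.0% in EL4, from 50.2% to 35.3% in IVA12, from 53.2% to 28.7% in Jurkat and from 50.1% to 18.5% in TALL-104.

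With TMM, 1 of 4 members passed in each mouse line and 6 of 6 in each human line. With each cell thinned to 1000 UMIs, 2 members passed in Jurkat (SNHG12 and SNHG15) and 2 in TALL-104 (SNHG8 and SNHG15), and in IVA12 Snhg12 passed (adjusted p = 0.027) and Snhg6 did not (adjusted p = 0.092). The EL4 count was 0 without replicate 2 and 3 without replicate 1 or 3, and the IVA12 count was 3 without replicate 1 and 2 without replicate 3 or 4. Over all genes, with all libraries and no thinning, 31.3% were higher in replicates 1 and 3 and 28.7% higher in replicates 2 and 4 in EL4, 34.1% and 33.8% in IVA12, 30.1% and 26.5% in Jurkat, and 19.2% and 19% in TALL-104. The shares with cells thinned or a library left out are not given here. The median difference of the 6 human members was 0.76 in Jurkat and 1.21 in TALL-104, beside -0.028 and -0.018 over all genes. The mitochondrial limit kept 48.6% and 44.9% of the Jurkat cells and 68.2% and 64.8% of the TALL-104 cells of replicates 2 and 4, and 96.9% and 99.4%, and 87.6% and 99.8%, of those of replicates 1 and 3. With a limit of 15% all 6 members still passed in both lines. Snhg9 in either mouse line did not pass, and its direction turned without replicate 3, to -0.38 in EL4 and -0.44 in IVA12.

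**Figure D5:**
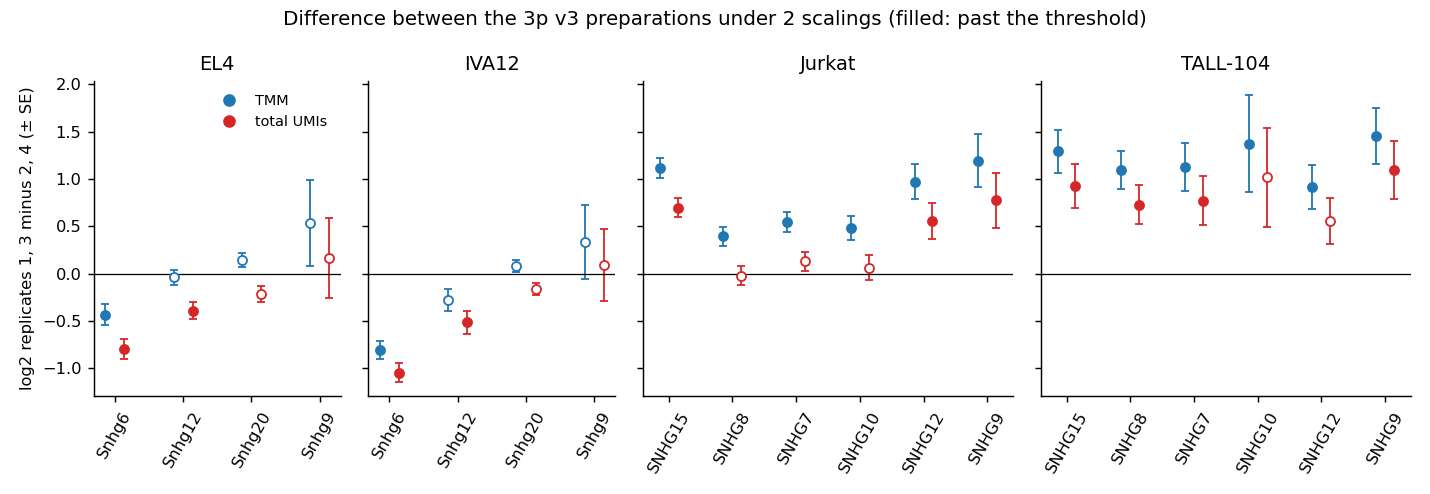
The log2 difference between the 3p v3 mixtures, replicates 1 and 3 minus replicates 2 and 4 (vertical axis, with standard error), for each member under TMM scaling and under total UMIs, filled where the adjusted p was under 0.05. Snhg6 lay below 0 in both mouse lines under either scaling, and SNHG15 and SNHG9 lay above 0 in both human lines.

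From cell to cell Snhg12 was the most uneven mouse member. The squared deviation of its UMIs from the number predicted by each cell's depth was 1.297 to 3.21 times the counting error over the 7 EL4 sums and 1.09 to 4.32 times over the 7 IVA12 sums, where 1 is counting error alone. The ratio was 1.24 to 1.53 and 1.03 to 1.71 for Snhg6, 1.19 to 1.71 and 1.19 to 1.86 for Snhg20, and 1.09 to 1.75 and 0.94 to 1.48 for Snhg9. Snhg12 had the highest ratio of the mouse members with at least 100 UMIs in 11 of the 14 sums. A single EL4 cell held 80 Snhg12 UMIs, and the top 1% of IVA12 cells held 4.17% to 13.6% of them. Between the marker-named clusters of IVA12 its level differed by 1.302 to 2.02 times within a library, that of Snhg20 by 1.05 to 2.32 times and that of Snhg6 by 1.09 to 1.16 times. In 3p v3 replicate 1 and 5p v1 replicate 1 the lowest Snhg12 cluster held 11 and 9 UMIs, and the lowest Snhg20 cluster of 3p v3 replicate 1 held 9.

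Members of 1 species were also counted in cells of the other. Human members reached at most 2.10 per 1e6 UMIs of an IVA12 sum and 2.04 of an EL4 sum in 3p v3. Mouse members reached at most 15.04 per 1e6 UMIs of a TALL-104 sum in 3p v3 (Snhg6) and 4.48 of a Jurkat sum (Snhg9 in 3p v2). The TALL-104 value, 44 UMIs in 3p v3 replicate 3 where 14.2% of UMIs were from mouse, was as high as the level of SNHG10 in TALL-104 in 3p v3. It counts mouse RNA and does not measure a background of SNHG10, a human gene. Free human RNA was estimated at 0.336% to 7.68% of the TALL-104 sums in 3p v3, and SNHG10 had 23.0 to 41.4 CPM in free RNA there. With estimated free RNA taken off, SNHG10 differed between Jurkat and TALL-104 by 1.42 (adjusted p = 7.71e-04).

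Other genes of the snoRNA pathway were counted by fixed lists. Of the 8 core snoRNP proteins tested, 0 were higher in EL4 and 5 were higher in IVA12 in 3p v3, and 0 and 7 in 5p v1, where 41.1% and 38.1% of all genes were so called in 3p v3 and 42.1% and 43.5% in 5p v1. Nop56, a box C/D core protein, had a mean of 286 CPM in EL4 and 606 CPM in IVA12 in 3p v3, and Nhp2, an H/ACA core protein, had 430 and 873 CPM. Of 10 assembly factors, which load those proteins, 0 were higher in EL4 and 5 in IVA12 in 3p v3, and 1 and 9 in 5p v1. Of 10 nonsense-mediated decay factors, 3 were higher in EL4 and 4 in IVA12 in 3p v3. Among non-coding hosts of other names, both features named Dancr, another non-coding snoRNA host, were higher in EL4 in both kits, at mean levels of 10.3 and 5.79 CPM in EL4 and 5.25 and 4.16 CPM in IVA12 in 3p v3. Of 40 protein-coding hosts, most of them ribosomal protein genes, 17 were higher in EL4 and 14 in IVA12 in 3p v3. The counts of decay factors and protein-coding hosts were near the shares over all genes. The median difference in 3p v3 was -0.27 for the core proteins, -0.12 for the assembly factors and 0.079 for the protein-coding hosts, beside 0.039 over all genes. In 5p v1 it was -0.97, -0.94 and 0.35, beside -0.020 over all genes. In the interaction of line and kit 5 of 8 core proteins and 9 of 10 assembly factors passed with EL4 relatively higher in 3p v3, and 0 the other way, beside 16.4% and 13.9% of all genes.

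In the human lines 7 of the 8 core proteins were higher in Jurkat and 1 in TALL-104 in 3p v3, beside 33.5% and 32% of all genes. DKC1, the pseudouridine synthase, had a mean of 162 CPM in Jurkat and 57.4 CPM in TALL-104, while NOP10 went the other way, with 254 and 334 CPM. Of 10 assembly factors 6 were higher in Jurkat and 0 in TALL-104, with RUVBL2 at 182 and 31.7 CPM. Decay factors were split, with 3 higher in Jurkat and 4 in TALL-104. The non-coding hosts ZFAS1, C6orf48 and EPB41L4A-AS1 did not pass in 3p v3 (adjusted p from 0.18 to 0.52), whereas in 5p v1 ZFAS1 and C6orf48 were higher in TALL-104, at 596 against 277 CPM and 172 against 82.4 CPM, where 7.38% of all genes were higher in TALL-104. Of 40 protein-coding hosts 17 were higher in Jurkat and 4 in TALL-104 in 3p v3. The median difference was 0.92 for the core proteins, 0.82 for the assembly factors and 0.39 for the protein-coding hosts, beside 0.035 over all genes.

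Between the 3p v3 mixtures, 8 of 8 core proteins and 10 of 10 assembly factors were higher in replicates 1 and 3 in Jurkat, and GAR1, an H/ACA core protein, had means of 126 and 55.5 CPM. Over all genes in Jurkat 30.1% were higher there and 26.5% lower, with a median of -0.028. The median differences of the core proteins and assembly factors were 1.32 and 1.04 with TMM. Scaled by total UMIs 7 core proteins and 6 assembly factors were still higher and 0 lower, with medians of 0.90 and 0.62. With that scaling 2461 of 13677 genes were higher and 6104 lower, with a median of -0.44. In TALL-104, 4 of 8 core proteins and 3 of 10 assembly factors were higher and 0 lower with TMM. With total UMIs 2 core proteins were higher and 1 lower, and 0 of 10 assembly factors passed. Over all genes in TALL-104, 19.2% and 19% were higher and lower with TMM, with a median of -0.018. With total UMIs 688 of 8861 genes were higher and 3039 lower, with a median of -0.38. Of the 10 decay factors, 8 were lower and 1 higher in replicates 1 and 3 in EL4, and 7 lower and 1 higher in IVA12, against 9 lower and 8 lower with total UMIs. Their medians were -0.45 and -0.67 with TMM, where 28.7% and 33.8% of all genes were lower, with medians of 0.025 and 0.0054. With total UMIs their medians were -0.80 and -0.91. There 5581 of 11775 genes were lower in EL4 and 5226 of 11756 in IVA12, with medians of -0.33 and -0.23 over all genes. Of the 3 non-coding hosts of other names, 0 were higher and 2 lower in replicates 1 and 3 in Jurkat with TMM. The 2 were ZFAS1 and C6orf48, the latter at 60.7 against 169 CPM. With total UMIs all 3 hosts were lower in Jurkat, as were 6104 of 13677 genes. In TALL-104, all 3 hosts were higher with TMM and 0 passed with total UMIs.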

How the data were processed

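UMI counts for 7 of the 8 libraries were used as deposited by the authors, who aligned reads to a combined hg19 and mm10 reference with Cell Ranger 3.0.2 (reference 1.2.0, per the submitters' processing notes), downsampled reads beforehand and kept every barcode. 3p v2 replicate 1 is not analysed here. Whether counting used strand is not given in the sources used here. Cells were kept with at least 1000 UMIs, over 80% from 1 species and under 10% mitochondrial. Clustering within library and species came before the mitochondrial limit (scanpy 1.11.5, Python 3.11.15, with 1000 variable genes, 15 components, resolution 0.5). Clusters were named from marker lists. No doublet caller was run: barcodes above 10 times their library's median UMIs, and clusters with markers of both lines, stayed unnamed. UMIs were summed per library and line and tested with edgeR 4.0.16 (R 4.3.3; quasi-likelihood, TMM, filterByExpr, Benjamini-Hochberg over all genes, threshold 0.05), with the library as a block between lines. The SE is the log2 difference divided by the square root of F. Total UMIs of the sums set the precision, and limits for a count of 0 used 3 counts and cover counting error only. The steps were tested on simulated data with 200 changed genes. DESeq2 1.42.0 and other settings were alternatives. Those that kept clusters of mixed markers, scaled by total UMIs or took off estimated free RNA were chosen after seeing the data, as was the rule on mixed clusters. Members and lists were chosen with earlier results of these data known. All members are named. Genes of the other lists were picked from those with the highest mean CPM or the largest called differences each way, and not all of those are named.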

Additional observations from a re-analysis of the deposited data

Results flagged for a closer look

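Snhg12 was marked because its difference between EL4 and IVA12 was not the same in the 2 kits. The interaction term was -1.18 on the log2 scale (SE 0.15, adjusted p = 4.39e-04 in edgeR's quasi-likelihood test), with EL4 and IVA12 at means of 52.2 and 49.5 CPM in 3p v3 and 102 and 46.8 CPM in 5p v1. EL4 was higher in both 5p v1 libraries and in 3 of 4 3p v3 libraries. The interaction passed for 1 of 5 members, beside 16.4% of 13125 genes with EL4 relatively higher in 3p v3 and 13.9% the other way. Kit and cell mixture cannot be told apart. In the 21 groups of 4 libraries examined (member and line in 3p v3), no library lay far enough from the others to be marked.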

How the results depend on the processing

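Lines were compared within libraries by the library block, and the 3p v3 mixtures also with targeted cells as a block. Between kits no paired analysis was possible because replicate numbers only follow accession order there. Shares of all genes called under the settings below, or with a library left out, are not given here. The number of members past the threshold moved by over 1.5 times as follows. For Jurkat against TALL-104 in 5p v1 it was 1, and 3 with no filter on low counts, 5 with lines named cell by cell, 3 with cells thinned and 3 with no library block. Between kits it went from 2 to 1 in IVA12 and from 4 to 0 in Jurkat with cells thinned, to 4 in IVA12 with 3p v3 replicates 2 and 4 only, and in TALL-104 from 0 to 2 with no filter, 1 with replicates 1 and 3 only and 3 with replicates 2 and 4 only. Between the 3p v3 mixtures it went from 1 to 2 in EL4 with no filter or total UMIs, from 1 in IVA12 to 3 with no filter and 2 with total UMIs or targeted cells as a block, from 6 in Jurkat to 2 thinned and 3 with total UMIs, and from 6 to 2 in TALL-104 thinned. The mouse interaction went from 1 to 2 with DESeq2 size factors, the DESeq2 Wald test, a mitochondrial limit of 15% or estimated free RNA taken off. Leaving out 1 library at a time gave 3 to 5 members for EL4 against IVA12 and 5 to 6 for Jurkat against TALL-104 in 3p v3 (5 mouse members without replicate 2, Snhg12 and Snhg11 among them), 3 to 3 between kits in EL4, 0 to 2 in IVA12, 0 to 3 in Jurkat and 0 to 1 in TALL-104, 0 to 3 between mixtures in EL4 (0 without replicate 2), 1 to 3 in IVA12, 6 to 6 in Jurkat and 4 to 6 in TALL-104, and 1 to 3 and 0 to 0 for the mouse and human interactions. It gave no value for the line comparisons in 5p v1, which then had no residual degrees of freedom. In the 3p v3 line fit without replicate 2, Snhg11 met the low-count filter through IVA12 alone. Signs turned, between kits, for Snhg12 in IVA12 (-0.044 with replicates 1 and 3 only), and in TALL-104 for SNHG15 (0.41 thinned) and SNHG7 (0.54 cell by cell, -0.94 to 0.30 with 1 library left out, 0.30 without 5p v1 replicate 2). Between mixtures they turned for Snhg12 in EL4 (0.014 thinned, -0.17 to 0.064 with 1 library left out, 0.064 without replicate 3), Snhg20 (-0.21 in EL4 and -0.16 in IVA12 with total UMIs, -0.28 in IVA12 thinned), Snhg9 (-0.38 in EL4 and -0.44 in IVA12 without replicate 3, adjusted p = 0.011 and 0.016, and -0.11 in IVA12 without replicate 4, the highest values with 1 library left out being 1.08 and 0.80), SNHG8 in Jurkat (-0.021 with total UMIs) and SNHG10 in Jurkat (-0.18 thinned). In the interaction they turned for Snhg9 (0.95 thinned, -2.91 to 1.02 with 1 library left out, 1.02 without 5p v1 replicate 2), SNHG8 (-0.23 cell by cell, -0.38 thinned, -0.048 to 0.43 with 1 library left out, -0.048 without 3p v3 replicate 4), SNHG15 (-0.78 cell by cell, -1.65 thinned, -0.47 to 0.75 with 1 library left out, -0.47 without 5p v1 replicate 2) and SNHG10 (-0.011 with DESeq2 size factors, -0.0071 with no filter, -0.0067 at 2000 UMIs, -1.80 cell by cell, -0.051 without mitochondrial genes, -0.44 to 0.44 with 1 library left out, and -0.44, -0.07 and -0.32 without 5p v1 replicate 2 and 3p v3 replicates 1 and 4). The cause was not tested. Total UMIs in place of TMM also moved the median of all genes from -0.020 to -0.23 for EL4 against IVA12 in 5p v1 and from 0.035 to 0.18 for Jurkat against TALL-104 in 3p v3.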
